A study of Mus musculus with 12 samples.

Results

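The report covers the change in RNA levels of tbGFP-positive mouse embryonic stem cells between 0 and 24 h of sorbitol. The members are the 4 libraries, of 12 in the series, whose titles carry the labels t24_tbGFPpos (2 libraries) and t0_tbGFPpos (2 libraries). All libraries came from E14, an established line of mouse embryonic stem cells, of genotype 2C::3xtbGFP, a turboGFP reporter of the 2-cell-like state; the labels give no further detail of its promoter or of the clone. The cells were grown in serum with LIF, plated without the kinase inhibitors CHIR99021 and PD0325901, collected at 48 h of culture after 0, 6 or 24 h of sorbitol, and sorted for tbGFP, 50000 cells at a time. The t0_tbGFPpos cells had 0 h of sorbitol and the t24_tbGFPpos cells 24 h. The matching tbGFP-negative cells at 0 and 24 h, 2 libraries each, were used to test whether the change differed between the sorted fractions.

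A small share of embryonic stem cells passes at any time into a 2-cell-like state, in which genes of the embryo at its first wave of transcription, such as the Zscan4 family and genes under the homeobox factor Dux, are switched on. Sorbitol, a sugar alcohol that cells take up poorly, raises the osmolarity of the medium and draws water out of cells. Mammalian cells answer by taking up or making small organic osmolytes, inositol, betaine, taurine, sorbitol and amino acids, through transporters and enzymes whose genes are switched on by the transcription factor NFAT5. Stress of several kinds also acts through p53 and through the translation-controlled factor ATF4, which regulates genes of amino acid supply.

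By the labels all groups were collected at 48 h of culture, so time after plating was the same at 0 and 24 h of sorbitol. The groups differed in the age of the culture at which sorbitol began. The sort followed the culture, so the cells sorted as positive at 24 h may or may not have been positive at 0 h. The labels do not tie the libraries to separate cultures, and the p-values therefore measure no more than how these samples vary, which may be technical variation. In bulk RNA, fewer cells of a type and less RNA per cell cannot be told apart. The 4 libraries held 6098314 and 4572157 counts at 0 h and 6457729 and 7134401 counts at 24 h. Replicate 2 at 0 h was sparse, with counts in 18600 genes, against 24408 in replicate 1 and 25279 and 25534 in the 24 h libraries. Sparse too (17545 and 17445 genes) were the positive libraries of the 6 h group, which enter the estimate of spread. They were less like each other (Pearson r of log2 CPM across genes, which are not independent, 0.789) than those at 0 h (0.909) or 24 h (0.952). Levels are CPM, the counts of a gene relative to all counts of its library, scaled with TMM factors and not corrected for gene length, so they are compared between libraries and not between genes.

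The sorted cells held their defining RNAs at both times. The 21 markers of 2-cell-like cells summed to 57940 and 65640 CPM at 0 h and to 40230 and 40620 CPM at 24 h, against 970.5 and 915.5 CPM in tbGFP-negative cells at 24 h. The sum was lower in both 24 h libraries than in both 0 h libraries. Zscan4 genes made up most of it, so it does not describe every marker. Zscan4d alone was at 18130 and 19790 CPM at 0 h and at 9134 and 10450 CPM at 24 h. Among the other markers, Tcstv3 was lower in both 24 h libraries, Zfp352 was higher in both, and Gm8300 overlapped between times. The 3 pluripotency markers summed to 1758 and 1217 CPM at 0 h and 1620 and 1143 CPM at 24 h, and their groups overlapped. Of other cell types, the 6 primitive endoderm markers summed to 2.3 and 1.48 CPM and then 4.44 and 5.6 CPM, with Gata4 and Foxa2 at 0. This sum was higher in both 24 h libraries than in both 0 h libraries. The 6 fibroblast markers held 79.9 and 61.0 CPM at 0 h and 64.4 and 64.9 CPM at 24 h, with Postn at 0, so these groups overlapped. The 7 trophectoderm markers, with Elf5 at 0, and the 6 markers of mesoderm and ectoderm, with Mesp1 at 0, had overlapping sums too (72.2 to 139 and 4.98 to 10.6 CPM at 0 h, 92.2 to 98.1 and 5.01 to 5.15 CPM at 24 h). The part of the lower 2-cell-like sum and of the higher primitive endoderm sum in the results was not tested.

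Between 0 and 24 h, 107 of 19384 genes tested (0.552%) passed an adjusted p of 0.05 in edgeR's quasi-likelihood test. Higher at 24 h were 59 genes (0.304%) and lower were 48 (0.248%). Scaled by library totals only, 68 were higher and 28 lower. The log2 fold change of the median gene was 0.09. In all 107 the 2 libraries at 0 h did not overlap with those at 24 h, which held for 43.0% of all genes tested. Of the 59 higher genes 50 were protein coding and 3 were long intergenic RNAs, and of the 48 lower genes 44 were protein coding and 4 were processed pseudogenes. The number of calls rested on the spread shared with the other libraries. Without the tbGFP-positive libraries at 6 h, 940 genes were called (4.85%), 456 higher (2.35%) and 484 lower (2.5%), and these held all 107 in the same direction. It also rested on each library of the comparison, with 39 and 17 calls without replicate 1 or 2 at 0 h and 9 and 24 without replicate 1 or 2 at 24 h, and with 41 to 44 without 1 of the tbGFP-negative libraries at 0 or 24 h. Slc5a3, Gas5, 1110038B12Rik, Gm26270, Rian, Car2, Gas7, Ap1s2 and Scd2, 9 genes, were called in each of the 19 alternative fits, and the other 98 lost the call in at least 1.

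**Figure D1:**
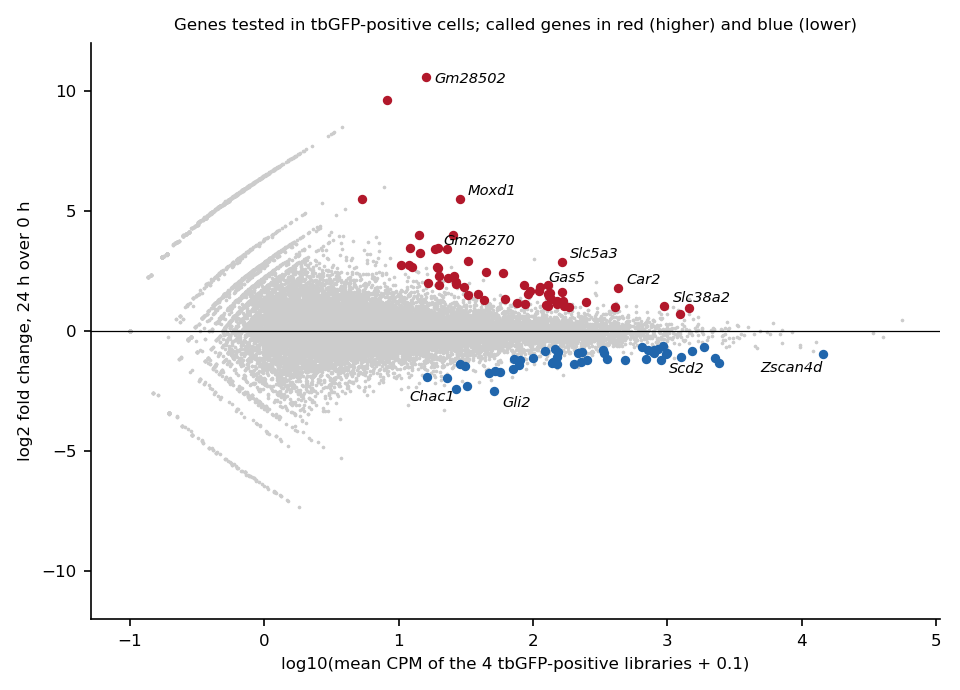
Log2 fold change between 24 h and 0 h in tbGFP-positive cells against the log10 of the mean level over the 4 libraries, for the genes tested. Red points are the 59 genes called higher and blue points the 48 called lower; the higher genes reach larger changes at low levels, and the lower genes extend to abundant RNAs, such as Zscan4d.

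Genes of osmolyte handling were the list with most higher members. Of 17 tested genes of the osmotic response 3 rose and 0 fell, with a median log2 fold change of 0.82 against 0.09 over all genes, and 6 rose without the 6 h positive libraries. Of all genes tested 0.304% rose, and 2.35% rose without those libraries. Slc5a3 (ENSMUSG00000089774.2, chromosome 16, 92058322 to 92087473, GRCm38) encodes the sodium-coupled carrier that brings the osmolyte myo-inositol into the cell. It was at 51.9 and 27.4 CPM at 0 h and at 284 and 292 CPM at 24 h. Both 24 h libraries stood far above both 0 h libraries, and the log2 fold change was 2.85 ± 0.24 (SE, adjusted p = 0.0001056).

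Akr1b3, aldose reductase, which makes sorbitol from glucose inside the cell, was at 26.4 and 24.0 CPM and then at 63.0 and 58.3 CPM. The groups lay well apart, with a log2 fold change of 1.27 ± 0.24 (adjusted p = 0.02513). Its neighbour Akr1b8, a related aldo-keto reductase 36.6 kb away that was on no list, rose more, from 16.5 and 21.5 to 110 and 90.0 CPM (2.40 ± 0.35, adjusted p = 0.007612). Slc38a2, the sodium-coupled carrier of neutral amino acids, was at 554.6 and 694.1 CPM at 0 h and at 1250 and 1287 CPM at 24 h. Its 24 h libraries agreed closely and lay above both 0 h libraries (1.02 ± 0.17, adjusted p = 0.01355).

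Other osmotic genes did not pass the test. Slc6a6, the taurine carrier, was at 350.8 and 276.5 CPM and then 463.1 and 376.9 CPM (0.42 ± 0.17, adjusted p = 0.4381). Nfat5 itself had few counts, 1.07 to 2.3 CPM over the 4 libraries, and no change was detectable at this depth (adjusted p = 0.9462). How reads shared by several transcripts of a gene were counted is not given, so few counts need not mean little RNA. Syndecan 4, encoded by Sdc4, was at 115 ± 22.6 and 477 ± 52.0 CPM (mean ± SD, n = 2 libraries), a log2 fold change of 2.05 ± 0.51 that passed without the 6 h positive libraries (adjusted p = 6.546e-09, against 0.138 with them). It also passed in DESeq2 (adjusted p = 0.02904) and with the 4 or the 8 libraries at 0 and 24 h alone (adjusted p = 5.509e-06 and 2.708e-07). Without the 6 h positive libraries Aqp3, a channel for water and glycerol, and Slc6a12, the betaine carrier, passed too (adjusted p = 0.02567 and 0.01586), and Slc6a12 also with the 8 libraries alone (adjusted p = 0.01743). Slc6a12 had 0 counts in both 0 h libraries and 3.17 ± 0.53 CPM at 24 h.

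Slc5a3 lies within Mrps6, a gene of the mitochondrial ribosome on the same strand, and the sense-intronic RNA Gm16310 lies in Mrps6 as well. Mrps6 had 2 counts at 0 h and 130 at 24 h, 48.5 times as many after scaling (95% counting interval 13.2 to 404). Gm16310 went from 1.92 and 3.46 CPM to 18.5 and 17.5 CPM (2.76 ± 0.57, adjusted p = 0.0445). All 3 genes of the locus rose. How reads in overlapping genes were assigned is not given in the sources used here, so their values are not separate measurements of 3 genes.

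**Figure D2:**
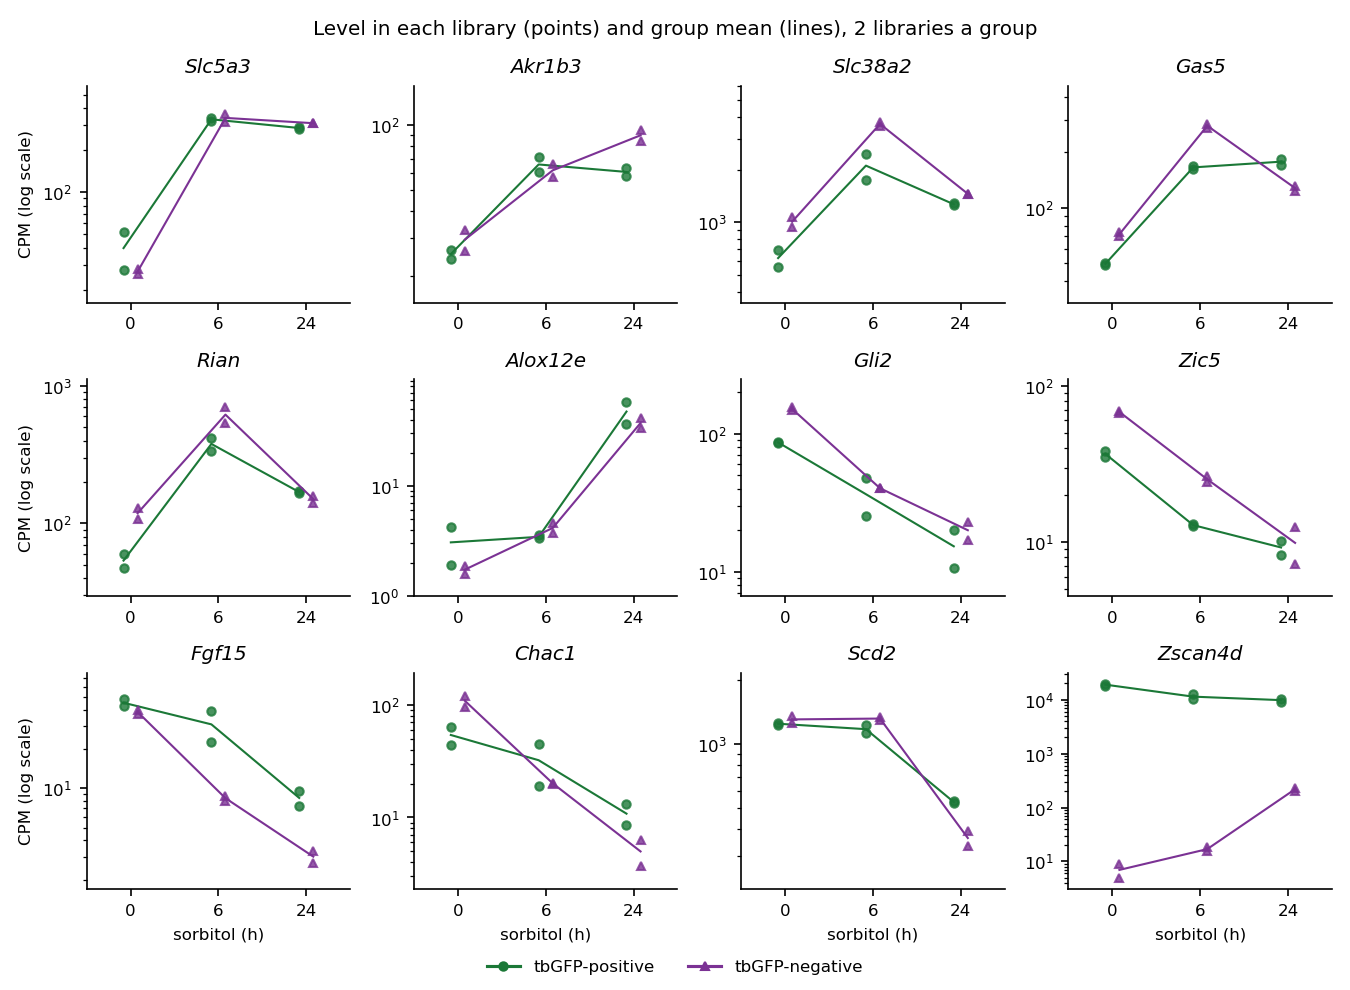
Level of 12 genes in every library, in CPM on log axes, at 0, 6 and 24 h of sorbitol in tbGFP-positive (green circles) and tbGFP-negative cells (purple triangles), with lines through the means of 2 libraries. In tbGFP-positive cells the means of Slc5a3, Akr1b3, Slc38a2 and Rian were at least as high at 6 h as at 24 h, while those of Alox12e and Scd2 at 6 h were near the 0 h level. Zscan4d lies at 9134 and 10450 CPM at 24 h in positive cells and at 233 and 205 CPM in negative cells.

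Several noncoding RNAs that carry small nucleolar RNAs (snoRNAs, guides for the chemical modification of other RNAs) in their introns stood among the steadiest increases; they were picked out after their values were seen. Gas5 (ENSMUSG00000053332.13, chromosome 1, 161034422 to 161038539, GRCm38), a growth-arrest transcript and snoRNA host that accumulates when translation slows, was at 48.8 and 50.4 CPM at 0 h and at 184 and 171 CPM at 24 h. The replicates agreed closely within each time, and the log2 fold change was 1.84 ± 0.17 (adjusted p = 0.0001776). The snoRNA host 1110038B12Rik was at 51.9 and 58.3 CPM and then at 202 and 206 CPM (1.89 ± 0.19). Taf1d, which encodes a subunit of the RNA polymerase I factor SL1 and holds snoRNAs in its introns, went from 957 and 1020 to 1944 and 1864 CPM (0.95 ± 0.17, adjusted p = 0.0187).

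Rian (ENSMUSG00000097451.10, chromosome 12, 109603940 to 109661716, GRCm38), a long RNA of the imprinted Dlk1-Dio3 domain that also hosts snoRNAs, was at 47.3 and 59.8 CPM at 0 h and at 166 and 171 CPM at 24 h. It stood higher still at 6 h, at 339 and 418 CPM. Its log2 fold change at 24 h was 1.66 ± 0.20 (adjusted p = 0.00118), against 0.34 in tbGFP-negative cells, and the difference between fractions passed (1.32 ± 0.27, adjusted p = 0.02702). That difference did not pass with the highest transcript per gene (adjusted p = 0.09387), nor without any 1 of 7 of the 8 libraries at 0 and 24 h (edgeR, adjusted p between 0.03165 and 0.315 over the 8). Of its neighbours in that domain, Meg3 was at 104 and 117 CPM and then 70.6 and 86.7 CPM (adjusted p = 0.4653), and Mirg at 23.6 and 32.4 CPM and then 41.7 and 40.9 CPM (adjusted p = 0.6088). Neither passed, and Meg3 lay on the other side of 0.

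Among 161 snoRNA genes tested 1 rose and 0 fell, with a median log2 fold change of 0.33, and 8 rose and 1 fell without the 6 h positive libraries. Of all genes tested 0.304% rose and 0.248% fell, and without those libraries 2.35% rose and 2.5% fell. The 1 snoRNA gene that rose in the main fit was Gm26270, at 3.64 and 2.72 CPM at 0 h and at 30.0 and 38.3 CPM at 24 h (3.40 ± 0.32, adjusted p = 0.0001776). Its sequence is shown because it identifies the family: in capitals are TGATGA and CTGA, the C and D boxes that define a C/D snoRNA. It covers 94 bases of the minus strand at chr7:59716059-59716152 (GRCm38), read from the GENCODE M21 transcripts.
Gm26270: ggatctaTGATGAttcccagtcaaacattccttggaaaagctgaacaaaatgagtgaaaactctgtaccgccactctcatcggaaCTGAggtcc
The gene lies within Snhg14, the host of the imprinted Snord116 cluster. Its 94 bases were identical to those annotated as Snord116l11, Snord116l13, Snord116l16, Gm22417, Gm24153 and Gm25816, so reads from these copies cannot be told apart by sequence. Of the 12 snoRNA genes tested within Snhg14 on its strand, 11 had a positive log2 fold change and 1 passed, with a median of 3.27. Over all genes, 10667 of 19384 were positive. In tbGFP-negative cells 11 of the 12 were positive and 4 passed. Most of the 12 had 0 to 3 counts over the 0 h libraries, and Gm24264 had 1 count at 24 h, so the median depends on the prior count. Most are identical or near-identical copies, so the 11 are not separate measurements. Snhg14 itself was at 39.1 and 60.5 CPM and then 71.9 and 51.8 CPM, with overlapping groups (0.32, adjusted p = 0.7956).

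The largest increases were of genes with few counts at 0 h. Moxd1, a monooxygenase related to dopamine beta-hydroxylase, was at 0.38 and 2.22 CPM at 0 h and at 61.8 and 49.0 CPM at 24 h (5.48 ± 0.94, adjusted p = 0.0164). The lipoxygenase genes Alox12e and Alox15, which oxidise polyunsaturated fatty acids and lie 21.5 kb apart, rose together. Alox12e went from 1.92 and 4.2 CPM to 58.0 and 36.5 CPM (3.97 ± 0.48, adjusted p = 0.001209) and Alox15 from 6.13 and 1.48 CPM to 49.3 and 34.2 CPM (3.41 ± 0.57, adjusted p = 0.0164). Both were low in both 0 h libraries, with no overlap.

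Muc1, a mucin of epithelial surfaces, was at 2.68 and 0.49 CPM and then at 29.6 and 23.9 CPM (a log2 fold change of 3.999 ± 0.80, adjusted p = 0.03594). Gcm1, a transcription factor of placental trophoblast, was at 1.15 and 2.97 CPM and then at 21.7 and 22.4 CPM (3.44 ± 0.72, adjusted p = 0.04847). Slc5a5, the sodium-iodide carrier, was at 3.45 and 1.98 CPM and then at 27.2 and 24.9 CPM (3.23 ± 0.61, adjusted p = 0.02794). In all 3 genes the replicates at 24 h were close, and both lay well above the 0 h libraries. Gas7, an actin-associated protein, rose from 8.43 and 6.92 to 56.6 and 60.1 CPM (2.92 ± 0.34, adjusted p = 0.001073), gamma-synuclein (Sncg) from 3.45 and 2.72 to 22.9 and 18.4 CPM (2.73 ± 0.56) and Tmem252 from 4.4 and 6.18 to 36.2 and 30.5 CPM (2.66 ± 0.56). Ccl8, a chemokine, had 0 counts at 0 h and 199 at 24 h, at least 49.5-fold higher when the 0 h group is set to its floor of 3 counts in all, and the long intergenic RNA Gm28502, with 0 and 403 counts, was at least 100-fold higher.

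At higher levels, Car2, the cytosolic carbonic anhydrase that exchanges carbon dioxide and bicarbonate, went from 181 and 205 CPM to 686.2 and 641.5 CPM (1.78 ± 0.21, adjusted p = 0.001073). Cavin1, a coat protein of caveolae, went from 30.1 and 42.5 CPM to 154 and 116 CPM (1.90 ± 0.32). Fzd7, a Wnt receptor, was at 257 and 287 CPM and then at 573 and 501 CPM (0.98 ± 0.15, adjusted p = 0.01071). Sfn, the 14-3-3 sigma protein, rose from 79.3 and 55.1 CPM to 251 and 153 CPM (1.58 ± 0.33, adjusted p = 0.04297). These genes, like others outside the largest changes, the lists and the panel, were chosen after their values were seen. In each of the 4 the times did not overlap, though the 24 h replicates of Sfn lay far from each other.

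Among the decreases were genes of signalling and patterning. Gli2 (ENSMUSG00000048402.14, chromosome 1, 118834132 to 119053619, GRCm38), the activating transcription factor of the Hedgehog pathway, was at 86.0 and 86.7 CPM at 0 h and at 10.7 and 19.9 CPM at 24 h. The 0 h libraries were nearly equal and both 24 h libraries far below them (-2.49 ± 0.34, adjusted p = 0.003531). Its neighbour at 361.8 kb, Inhbb, the beta-B subunit of activin and inhibin, was at 76.8 and 68.5 CPM and then at 18.8 and 24.2 CPM (-1.75 ± 0.32, adjusted p = 0.02211). Gdf3, a ligand of the same superfamily, fell less, from 180 and 186 to 104 and 110 CPM (-0.78 ± 0.16).

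Fgf15, Fgf4 and the cyclin gene Ccnd1 lie within 64.7 kb of each other on chromosome 7, and all 3 fell. Fgf15, a secreted growth factor, was at 42.3 and 47.9 CPM at 0 h and at 7.28 and 9.57 CPM at 24 h (-2.42 ± 0.37, adjusted p = 0.008932). Fgf4, the growth factor through which stem cells drive their own ERK signalling, was at 737 and 608 CPM and then at 254 and 330 CPM (-1.21 ± 0.18, adjusted p = 0.008564). Ccnd1, cyclin D1, a growth-factor target that promotes entry into S phase, was at 95.4 and 117 CPM and then at 32.7 and 37.7 CPM (-1.59 ± 0.21, adjusted p = 0.003209). For each gene both 24 h libraries lay well below both 0 h libraries. Of the 13 feedback and target genes of FGF-ERK signalling tested, Ccnd1 fell and 0 rose, with a median of 0.46, so the list as a whole did not follow it.

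Of 17 genes of formative and primed pluripotency, Zic5 and Zic2 fell and 0 rose, with a median of -0.31. These zinc-finger factors sit 9.8 kb apart. Zic5 was at 38.5 and 34.8 CPM and then at 8.34 and 10.2 CPM (-1.98 ± 0.33, adjusted p = 0.0164). Zic2 was at 49.0 and 43.0 CPM and then at 12.4 and 20.6 CPM (-1.47 ± 0.30, adjusted p = 0.04434). Of 23 core and naive pluripotency genes only Fgf4 passed, with a median of -0.05. Pou5f1 (Oct4) was at 1220 and 785 CPM and then 998 and 602 CPM, overlapping between times. Sox2 (0.34, adjusted p = 0.5749), Klf4 (0.21, adjusted p = 0.8469) and Lifr, the LIF receptor (-0.05, adjusted p = 0.9798), did not pass. Nanog was lower in both 24 h libraries, at 44.6 and 40.3 and then 20.1 and 25.8 CPM, without passing (-0.89 ± 0.39, adjusted p = 0.4828).

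Targets of ATF4 lay mostly below 0. Of 22 tested, 6 had a positive log2 fold change, against 10667 of 19384 over all genes, and the median was -0.69. By the test 1 fell and 0 rose. The 1 was Chac1 (ENSMUSG00000027313.3, chromosome 2, 119351229 to 119354381, GRCm38), which degrades glutathione. It was at 64.0 and 44.0 CPM at 0 h and at 8.52 and 13.1 CPM at 24 h, with no overlap (-2.31 ± 0.41, adjusted p = 0.01926). Without the 6 h positive libraries 7 fell and 1 rose: besides Chac1, the arginine carriers Slc7a1 and Slc7a3, the large neutral amino acid carrier Slc7a5 and the serine and folate enzymes Phgdh, Psat1 and Mthfd2 passed downward (adjusted p from 0.0005368 for Slc7a3 to 0.03259 for Slc7a5), and Ddit4, an mTOR inhibitor, upward. That fit called 2.5% of all genes tested lower and 2.35% higher.

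The tRNA synthetase genes Aars and Yars, which charge alanine and tyrosine, fell too. Aars was at 1193 and 883 CPM and then at 552 and 537 CPM (-0.93 ± 0.16, adjusted p = 0.0173), and Yars at 166 and 152 CPM and then at 79.7 and 96.0 CPM (-0.85 ± 0.17, adjusted p = 0.03865). The spread between replicates of Aars at 0 h was smaller than the gap between times. Promoters of the called genes were searched on both strands for TGATGNAA, a form of the element that ATF4 binds, in the RefSeq window of 250 bases before to 50 after the start (GRCm38.p6). It was found in 3 of the 26 lower genes with a promoter entry (Chac1, Aars and Yars), in 2 of the 44 higher ones with an entry (Ptgr1 and Sfn), and in 4.51% of the 27025 genes in the table. Among ATF4 targets tested, 5 of 17 held it. Shown are the 250 bases before the start of Chac1 (plus strand, chr2:119350992-119351241) and Aars (plus strand, chr8:111033592-111033841), with the match, which reads on the minus strand, in capitals.
Chac1: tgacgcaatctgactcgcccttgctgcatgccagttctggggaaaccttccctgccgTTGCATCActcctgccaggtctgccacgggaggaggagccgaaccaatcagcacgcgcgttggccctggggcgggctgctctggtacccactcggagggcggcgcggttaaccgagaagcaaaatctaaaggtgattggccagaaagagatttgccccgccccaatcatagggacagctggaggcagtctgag
Aars: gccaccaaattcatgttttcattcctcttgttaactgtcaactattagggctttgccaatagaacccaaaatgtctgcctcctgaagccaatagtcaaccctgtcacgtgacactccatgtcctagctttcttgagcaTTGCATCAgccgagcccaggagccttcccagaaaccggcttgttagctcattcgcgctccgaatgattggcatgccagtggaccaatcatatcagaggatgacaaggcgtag
The match starts 193 bases before the start in Chac1 and 112 before it in Aars. A match describes these letters and was not tested as a site.

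In lipid synthesis, 2 of 28 genes of cholesterol and fatty acid synthesis fell and 0 rose, with a median of -0.21. Both were stearoyl-CoA desaturases, which put the double bond into newly made fatty acids, and lie 87.6 kb apart. Scd2 (ENSMUSG00000025203.6, chromosome 19, 44293674 to 44306864, GRCm38) was at 1232 and 1261 CPM at 0 h and at 531 and 540 CPM at 24 h (-1.22 ± 0.13, adjusted p = 0.000769). Replicates agreed closely at both times, and the times lay far apart. Scd1 was at 259 and 385 CPM and then at 98.2 and 162 CPM (-1.31 ± 0.24, adjusted p = 0.02206).

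Of 24 genes of S phase and the MCM helicase, 2 fell and 0 rose, with a median of -0.21. Pola1, the catalytic subunit of DNA polymerase alpha, was at 1220 and 1358 CPM and then at 560 and 765 CPM (-0.96 ± 0.16, adjusted p = 0.0149), and the helicase subunit Mcm4 at 1050 and 1093 CPM and then at 585 and 690 CPM (-0.75 ± 0.15, adjusted p = 0.03025). Off the lists, the histone chaperone Nasp (-0.91 ± 0.15), the DNA strand-break proteins Parp1 (-0.66 ± 0.13) and Xrcc5 (-0.83 ± 0.14), the chromatin remodeller Ino80 (-0.92 ± 0.19), the RNA-binding proteins Igf2bp1 (-0.85 ± 0.14) and Ago2 (-1.16 ± 0.17), and the tubulins Tubb2b (-0.81 ± 0.16) and Tuba1a (-0.67 ± 0.13) also fell, with adjusted p from 0.007078 for Ago2 to 0.03865 for Ino80. In each, both 24 h libraries lay below both 0 h libraries. Of the 25 genes of G2/M none passed (median -0.06); Top2a was at 3174 and 3742 CPM and then 1994 and 2523 CPM (-0.61 ± 0.15, adjusted p = 0.1091).

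Of 39 genes of the 2-cell program tested, Zscan4d fell and 0 rose, with a median log2 fold change of -0.14 and 11 genes above 0. Over all genes tested, 10667 of 19384 lay above 0. Zscan4d (ENSMUSG00000090714.10, chromosome 7, 11161374 to 11166159, GRCm38) was at 18130 and 19790 CPM at 0 h and at 9134 and 10450 CPM at 24 h, with both times close between replicates (-0.95 ± 0.17, adjusted p = 0.02082). Zscan4c was at 11070 and 12270 CPM and then 7661 and 7767 CPM, lower without overlap, and did not pass (-0.60 ± 0.27, adjusted p = 0.4926). Zscan4 paralogs are near-identical, and their split between members is uncertain. Summed, Zscan4a to Zscan4f took 4.17% and 4.89% of counts at 0 h and 2.5% and 2.93% at 24 h.

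Duxf3, the annotated Dux, was at 120 and 78.8 CPM and then at 48.3 and 42.1 CPM (-1.14 ± 0.31, adjusted p = 0.1506). Gm8300, of the Eif1a-like translation factor genes, was at 5552 and 6716 CPM and then 5729 and 5394 CPM, overlapping between times. Tcstv3 was at 93.3 and 97.1 CPM and then 62.8 and 57.6 CPM (-0.66 ± 0.31, adjusted p = 0.5267), and Zfp352 at 37.9 and 43.5 CPM and then 68.5 and 58.9 CPM (0.65 ± 0.40, adjusted p = 0.6874), the latter in the upward direction. Without the 6 h positive libraries 4 list members rose and 5 fell, in a fit that called 2.35% of all genes tested higher and 2.5% lower. Named after their values were seen, the list members that rose were Tdpoz2, Tdpoz3, Tdpoz4 and the arginase gene Arg2, and those that fell were Duxf3, Rdh1, Usp17ld, Zscan4d and Zscan4f. Off the list, the processed pseudogenes Gm6494, Gm21037, Gm16478 and Gm7957 and the predicted gene Gm4981 fell. Gm6494, for one, went from 3368 and 3612 CPM to 1225 and 1533 CPM (-1.34 ± 0.21, adjusted p = 0.009954), and the near-identical copies of such genes make the values uncertain. Gm4981 went from 92.1 and 80.3 CPM to 35.1 and 17.7 CPM (-1.71 ± 0.35, adjusted p = 0.04434). It lies close to Duxf3 on the minus strand of chromosome 10 (58234848 to 58236701, against 58229979 to 58232675 for Duxf3). The unprocessed pseudogene Gm9141, also named after its values were seen, rose from 34.5 and 59.8 CPM to 152 and 118.5 CPM (1.52 ± 0.31, adjusted p = 0.04847). In tbGFP-negative cells it was at 0 CPM at 0 h and at 2.07 and 2.03 CPM at 24 h.

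Targets of p53 lay mostly above 0 without a call. Of 26 tested 0 passed in edgeR, 7 had an unadjusted p under 0.05 and DESeq2 called 1. A positive log2 fold change was found in 20, with a median of 0.81. Of all 19384 genes tested, 1875 had an unadjusted p under 0.05 in edgeR, and DESeq2 called 506. Of the 19384, 10667 had a positive log2 fold change. Mdm2, the p53 antagonist, was at 10.3 and 9.39 CPM and then 22.5 and 29.2 CPM (1.39 ± 0.47, adjusted p = 0.2838). Perp, a p53 target of cell adhesion and death, was at 22.9 ± 10.1 CPM and then 181 ± 1.9 CPM (2.97 ± 0.59, adjusted p = 0.05324). Without the 6 h positive libraries 6 passed, all upward: Mdm2, Perp, Btg2, Plk2, Eda2r and Ccng1. That fit called 2.35% of all genes tested higher. Cdkn1a, the cell-cycle inhibitor p21, had 0 to 1.77 CPM in the 4 libraries (adjusted p = 0.8514).

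The heat-shock genes Hspa1a and Hspa1b did not pass in tbGFP-positive cells (-0.60 ± 0.35 and -0.37 ± 0.23, adjusted p = 0.6584 and 0.6823). They are near-identical copies. Of 16 heat-shock chaperones 0 passed (median -0.24). Hmox1, heme oxygenase, was at 158 and 161 CPM and then 91.4 and 92.8 CPM, lower in both 24 h libraries (-0.79 ± 0.20, adjusted p = 0.1091), and of 24 NRF2 antioxidant targets 0 passed (median -0.03). The lists of the ER unfolded protein response (16 genes, median 0.36), immediate-early genes (14, 0.43), the BCL2 family (15, 0.31), and interferon response (12, 0.20) gave 0 calls as well. Over the 21 lists in which edgeR called 0 genes, 56 of 422 members had an unadjusted p under 0.05, and DESeq2 called 6 of the 422 higher and 13 lower. Of all 19384 genes tested, 1875 had an unadjusted p under 0.05 in edgeR, and DESeq2 called 203 higher and 303 lower.

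Lists of housekeeping functions and of other cell types gave 0 calls, apart from histones. ATR checkpoint and DNA repair had a median of -0.34 over 25 genes and repressors of the 2-cell program -0.08 over 32. Glycolysis and hypoxia had -0.19 over 22 genes, lysosome and autophagy -0.08 over 24, ribosome biogenesis -0.04 over 20, and SR splicing factors with CLK kinases -0.05 over 19. Ribosomal proteins had 0.05 over 77 genes and mitochondrial mRNAs -0.35 over 11. For cell types, primitive endoderm had a median of 1.52 over 10 genes (0.99 with 2 genes that had 0 counts in a group at their bound). All 10 lay above 0, against 10667 of 19384 over all genes tested. Trophectoderm had a median of -0.22 over 9 genes, mesoderm and ectoderm -0.02 over 9, fibroblast 0.16 over 8 and germline -0.19 over 9. Of 60 histone genes 1 rose, Hist3h2a, from 4.98 and 1.73 to 19.0 and 24.4 CPM (2.66 ± 0.49, adjusted p = 0.02206), with a median of -0.02. With library totals as the only scaling, 7 lists changed the sign of their median: core and naive pluripotency, NRF2 targets, G2/M, ribosome biogenesis, SR splicing factors, mesoderm and ectoderm, and histones.

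**Figure D3:**
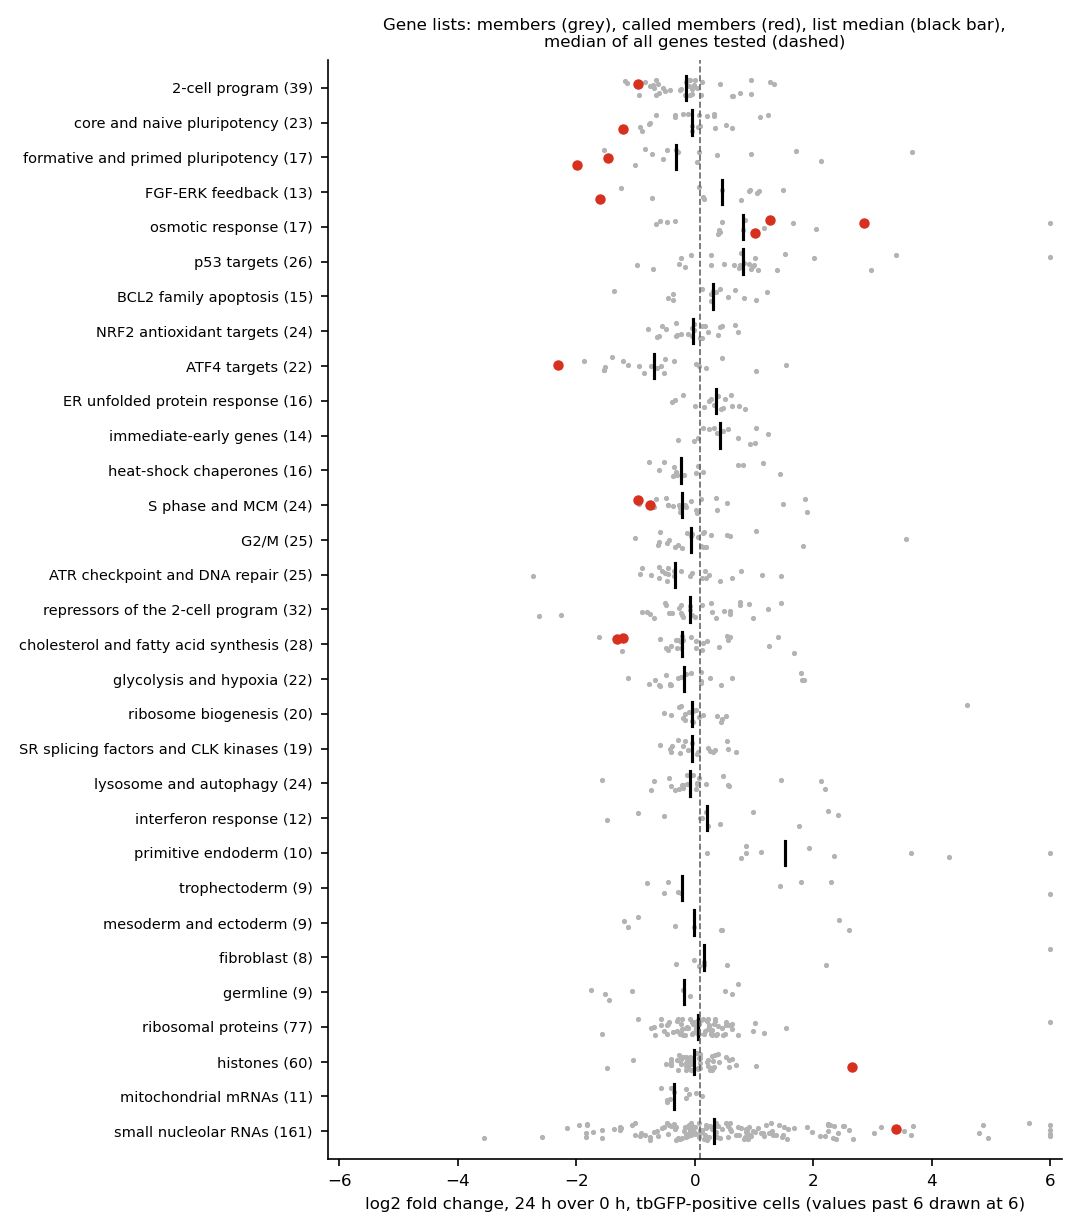
Log2 fold change between 24 h and 0 h in tbGFP-positive cells of the tested members of 31 gene lists (number tested in parentheses); grey points are members, red points called members, black bars list medians and the dashed line the median of all genes tested, 0.09. The osmotic response holds 3 red points above 0, while red points of the pluripotency, FGF-ERK, ATF4, S phase and lipid lists lie below 0.

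Most of the called genes moved the same way in the cells without the reporter signal. The tbGFP-negative comparison compares none of the libraries of the positive one. Both used the spread estimated from all 12 libraries, so their calls are not independent. It called 773 genes (3.99%), 523 higher (2.7%) and 250 lower (1.29%). Upper-quartile factors made this 412 higher and 408 lower and moved the median gene from 0.23 to 0.05 on the log2 scale. Of the 107 genes, 101 had the same sign in tbGFP-negative cells and 87 (81.3%) were called there in the same direction, which is 11.3% of the 773. By direction these were 49 of 59 higher and 38 of 48 lower genes. Of the 87, 58 changed more in tbGFP-negative cells and 29 more in tbGFP-positive cells. Slc5a3, for example, was at 25.8 and 28.1 CPM in tbGFP-negative cells at 0 h and at 312 and 311 CPM at 24 h, and the difference between fractions did not pass (-0.68, adjusted p = 0.943). Chac1 went from 121 and 96.4 to 6.31 and 3.68 CPM there (-4.42 ± 0.44), a larger change whose difference did not pass either (2.11 ± 0.57, adjusted p = 0.1545).

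**Figure D4:**
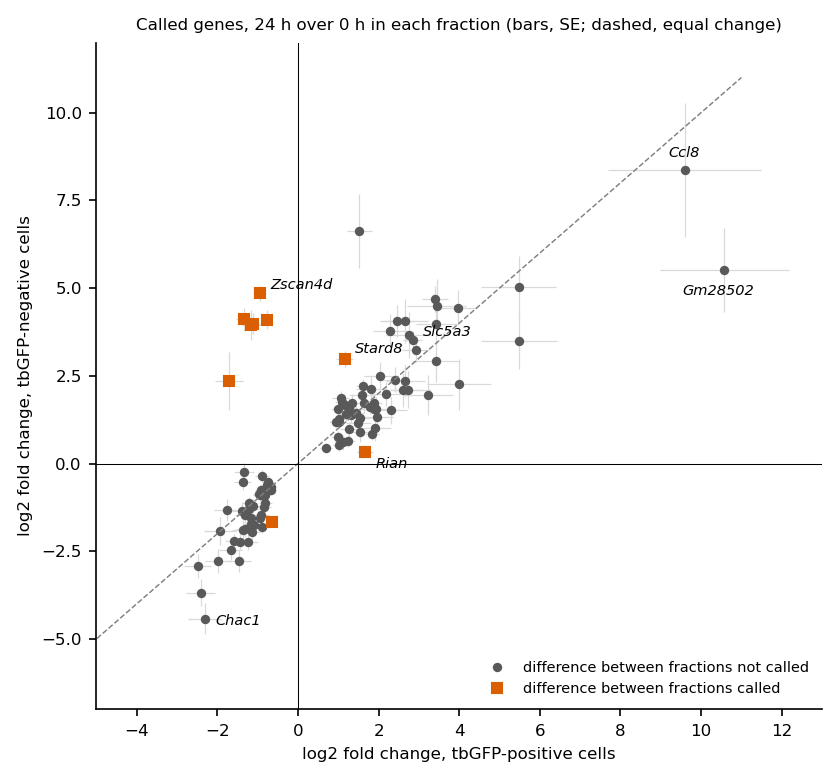
Log2 fold change between 24 h and 0 h of the 107 called genes in tbGFP-positive cells (horizontal) and tbGFP-negative cells (vertical), with SE bars; the dashed line marks equal change and orange squares the 9 genes whose difference between fractions passed. Most points lie near the line, and 6 orange squares, Zscan4d among them, lie below 0 in positive and above 0 in negative cells; Ccl8 and Gm28502, with 0 counts at 0 h in positive cells, have fitted values that depend on the prior count.

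The change itself differed between the fractions for 188 genes (0.97%), 4 with a larger log2 fold change in tbGFP-positive cells (0.0206%) and 184 with a smaller one (0.949%). The count of 4 was 0 without either replicate of tbGFP-negative cells at 0 h, without replicate 1 of tbGFP-negative cells at 24 h and without either replicate of tbGFP-positive cells at 24 h. It was 2 with the replicate block, 20 without a filter on low counts, 16 in DESeq2, 24 with the 8 libraries alone and 39 without the 6 h positive libraries. Of the 184, 180 rose in tbGFP-negative cells. The median log2 fold change of the 188 was -0.24 in tbGFP-positive and 4.36 in tbGFP-negative cells, and 25 were on the 2-cell list. Zscan4d rose in tbGFP-negative cells from 4.85 and 9.09 to 233 and 205 CPM (4.85 ± 0.22), while it fell in tbGFP-positive cells, and the difference was -5.81 ± 0.27 (adjusted p = 1.732e-08). At 24 h it was still far above the negative level in both positive libraries. Of the 107 genes called in tbGFP-positive cells, 9 were among the 188. Stard8 rose in both fractions, from 93.8 and 94.1 to 244 and 175 CPM in positive cells and from 26.5 and 34.2 to 239 and 242 CPM in negative cells (-1.81 ± 0.31, adjusted p = 0.005315). Map1b, a microtubule-associated protein, fell in both, from 1097 and 1152 to 723 and 712 CPM and from 638 and 674 to 195 and 219 CPM (1.02 ± 0.19, adjusted p = 0.01249), a difference that did not pass without any 1 of 6 of the 8 libraries at 0 and 24 h (edgeR, adjusted p between 0.02638 and 0.1446 over the 8). Hspa1a and Hspa1b, which rose in tbGFP-negative cells, also differed (-2.82 each, adjusted p = 0.02625 and 0.0003711). Both were higher in positive than in negative cells at both times. Hspa1a was at 63.6 and 27.7 against 1.49 and 1.93 CPM at 0 h, and at 31.95 and 28.4 against 10.1 and 6.6 CPM at 24 h. Hspa1b was at 140.6 and 104.3 against 7.84 and 5.68 CPM at 0 h, and at 101 and 88.5 against 34.2 and 36.9 CPM at 24 h.

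The 6 h libraries add the levels of the called genes at 6 h, as levels only, since they share the 0 h controls and were sparse. Of the 59 higher genes the mean at 6 h lay between the 0 h and 24 h means in 39, at or past the 24 h mean in 10 and on the other side of the 0 h mean in 10. The 10 past the 24 h mean were Akr1b3, Slc38a2, Gsta3, Foxj1, Mrps6, Gm16310, Slc5a3, 1110038B12Rik, Gm26270 and Rian. They include the osmolyte genes, with Slc38a2 at 1747 and 2474 CPM at 6 h and Slc5a3 at 322 and 342 CPM, and snoRNA-related transcripts, with Gm26270 at 86.6 and 116 CPM. In Akr1b3, Gsta3, Mrps6 and Gm16310 the 6 h libraries overlapped with the 24 h libraries. Of the 48 lower genes, 38 lay between, 9 on the other side, and Inhbb alone, at a mean of 14.6 CPM, below its 24 h mean. Alox12e, at 3.32 and 3.55 CPM, and Scd2, at 1229 and 1122 CPM, were still at their 0 h level at 6 h.

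Called genes often had a called neighbour, an observation made after their positions were seen. Within 500 kb, 26 of the 107 (24.3%) had another called gene, against 7.56% of all genes tested. They formed 16 pairs, of which 14 moved in the same direction. These include the pairs and trios named above (Mrps6, Slc5a3 and Gm16310; Alox12e and Alox15; Akr1b3 and Akr1b8; Zic5 and Zic2; Scd2 and Scd1; Gli2 and Inhbb; Fgf4, Fgf15 and Ccnd1), with Chac1 and Ino80, Yars and Zbtb8a, and the pseudogenes Gm21037 and Gm16478. The pairs that moved in opposite directions were Gcm1 with the oocyte gene Ooep and Pola1 with AU015836. Overlapping and near-identical genes are counted among them and are not separate measurements.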

How the data were processed

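RNA was measured in 12 libraries, 2 in each of 6 groups, from 120 ng of total RNA each with a stranded total-RNA kit, per the labels' protocols. Alignment used HISAT2 (build mm10) and counting featureCounts, per the submitters' processing notes, which also name FastQC and DESeq2, all unversioned. Each deposited file is a table of raw counts, a row for each Ensembl transcript; the strand setting and the treatment of overlapping features are not given in the sources used here. Counts were summed per gene with GENCODE M21 (141536 of 142446 transcripts matched by identifier), which gave 55266 genes, and tests were run on the 19384 that reached 10 counts in 2 or more libraries.

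One fit in edgeR 4.0.16 (limma 3.58.1, R 4.3.3) used TMM factors, robust quasi-likelihood tests and 6 group means, with all 12 libraries sharing the spread (coefficient of variation 45.6%). P-values were adjusted by Benjamini-Hochberg over the genes tested, at 0.05. Each SE of a log2 fold change was computed back from the test, as its absolute value over the square root of the F statistic. It is therefore approximate, and unreliable for genes with 0 counts in a group. In counts simulated for tbGFP-positive cells at 24 h against 0 h, on 19384 genes, the test recovered 22% of 2-fold and 66% of 4-fold changes, and 3 of its 91 calls were false. The simulation gave each gene a single mean and a single spread over all groups, and planted changes only in genes above a set level. It did not copy the unequal spread of the groups, so these shares may not hold for the real comparison. Alternatives were other scalings and filters, DESeq2 1.42.0, the replicate number as a block, fewer libraries sharing the spread, the highest transcript per gene, and leaving out each library at 0 or 24 h in turn. Bounds and intervals cover counting error only, since no molecular identifiers marked PCR copies.

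Members and the 31 lists were chosen with earlier results of these data known. Genes are named as the 10 largest increases and decreases among called genes with given names and at least 20 CPM in the higher group and more than 3 counts over the lower, a panel of 21 genes, up to 4 called members of each list or else its 2 most abundant, and the 5 largest differences between fractions in each direction; others are marked as chosen after their values were seen. Sequences are from GENCODE M21 and RefSeq (GRCm38.p6).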

Additional observations from a re-analysis of the deposited data

Results flagged for a closer look

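The change from 0 to 24 h differed between the sorted fractions, by the test of the difference itself (edgeR, adjusted p under 0.05), for 24 of the genes named. Values are the log2 fold change in tbGFP-positive minus that in tbGFP-negative cells. It was larger in tbGFP-positive cells for Rian (1.32) and Map1b (1.02), which fell less there. It was smaller for Stard8 (-1.81), Hspa1a (-2.82) and Hspa1b (-2.82). For genes of the 2-cell program and genes high in 2-cell-like cells the difference was -5.81 for Zscan4d, -5.04 for Zscan4c, -5.52 for Zscan4f, -5.50 for Zscan4a, -5.48 for Zscan4-ps3, -5.83 for Usp17la, -5.32 for Gm8300 and -7.24 for Tcstv3. It was -4.06 for Gm4981, -4.88 for Gm7957, -5.09 for Gm16478, -5.13 for Gm21037 and -5.45 for Gm6494. In these 13 genes the levels in tbGFP-negative cells at 24 h stayed far below those in tbGFP-positive cells. Among genes named because they passed without the 6 h positive libraries, the difference was -1.68 for Btg2, -4.21 for Arg2, -5.02 for Usp17ld, -4.40 for Tdpoz4, -9.42 for Tdpoz3 and -9.28 for Rdh1. Tcstv3, Tdpoz3 and Rdh1 had 0 counts in tbGFP-negative cells at 0 h, so their fitted values depend on the prior count. Gm4981 was near the floor in tbGFP-negative cells, at 0 and 0.23 CPM at 0 h and at 1.24 and 0.63 CPM at 24 h.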

How the results depend on the processing

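Of the 107 genes called in tbGFP-positive cells none reversed in any alternative, and 9 were called in all 19. In the 11 alternatives other than leaving out 1 library 72 kept the call, and 37 did in the 15 that kept the 4 libraries of the comparison, which include leaving out 1 tbGFP-negative library. The count moved by more than 1.5 times without a filter on low counts (361), with DESeq2 (506), without the 6 h tbGFP-positive libraries (940), with the 4 libraries of the comparison alone (334) and with the 8 libraries at 0 and 24 h alone (738, added after seeing the data). Leaving out 1 library at 0 or 24 h gave 9 to 44 calls; no single 6 h library was left out. With 1 library left in a group, that library is assumed to vary like the others. In tbGFP-negative cells, where the alternatives were added after seeing the data, DESeq2 called 1312 genes, the fit without the 6 h positive libraries 1933 and the 8 libraries 1768, and leaving out 1 library gave 259 to 762. The difference between fractions was called for 312 genes without a filter, 336 without the 6 h positive libraries and 303 with the 8 libraries, and for 77 to 161 without 1 library. Whether libraries of the same replicate number are paired is not given. Between 0 and 24 h, deviations of same-numbered libraries from their group means correlated at 0.03 (positive) and 0.011 (negative). These correlations include genes of few counts and cannot exclude a pairing. Pairing of positive with negative cells of the same time was not examined. The replicate block gave 95 calls, 92 of them shared, 712 in tbGFP-negative cells and 180 for the difference. Of 63 named genes that were not called, 20 were called in some alternative. Low counts limit genes such as Nfat5 and Cdkn1a, and the causes of these shifts were not tested.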
